A study of Mus musculus with 2 samples.

Results

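The interferon regulatory factors are the transcription factors encoded by the Irf genes, and 8 of them are described here, Irf1, Irf2, Irf3, Irf4, Irf5, Irf7, Irf8 and Irf9. They were chosen by name, as every probe set whose gene symbol in the array's annotation is one of these, which gave 14 probe sets for 8 of 18193 genes. RNA came from sorted spleen cells of C57BL/6 mice bearing hepatocellular carcinoma, a liver cancer, and Affymetrix 3' expression arrays served to measure it. The first sample held cells that carried Ter119, found on red cells and late red cell precursors, and lacked CD45, which white cells carry, and it is called the CD45-negative cells here. The second sample, the control, held CD45-positive cells from those mice, with no statement on whether Ter119 entered its gate. Both samples came from tumour-bearing animals, and no sample from a healthy mouse is part of the comparison. Each group had 1 array, the number of mice behind it is unstated in the labels, and no difference could be set against a spread between replicates or tested.

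All members of the family share a DNA-binding domain that reads repeats of GAAA, the core of the interferon-stimulated response element. IRF3, IRF5 and IRF7 lie dormant in the cytoplasm until kinases downstream of nucleic acid sensors and Toll-like receptors phosphorylate them, after which they switch on interferon genes. IRF9 joins STAT proteins to carry the signal of type I interferon receptors, IRF1 and IRF2 act on the same elements as activator and, mostly, repressor, and IRF4 and IRF8 pair with ETS and AP-1 factors to direct lymphoid and myeloid cell fates. In a spleen, IRF4 and IRF8 are best known from B cells, plasma cells, dendritic cells and macrophages.

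Values are linear intensities as the authors deposited them. The detection level was an intensity of 101.1, under which 95% of the readings of 80 olfactory and vomeronasal receptor probe sets lay over both arrays, since spleen cells should not express them, and a gene above it was called measured in that array. Where a gene had several probe sets, the brightest on average represented it. Each difference is a log2 value, CD45-negative minus CD45-positive, and an intensity under the level was raised to the level, which makes the difference a bound. A gene was counted as lower or higher from 4-fold upward, which is 2 in log2 units. Median intensity was 85.1 for the CD45-negative cells and 87.8 for the CD45-positive cells. At least 1 array measured 11793 genes, whose median difference was -0.26. Ptprc, the gene of CD45, stood at 423 in the CD45-negative array against 32147 in the CD45-positive array, in the direction of the sort. The 12 red cell markers with a probe set were all 4-fold or more higher in the CD45-negative array (median difference 6.07), and the 12 white cell markers were all 4-fold or more lower (median -5.36).

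The members did not share 1 direction. Irf8, Irf4, Irf5, Irf1 and Irf2 were 4-fold or more lower in the CD45-negative cells, which makes 5 of 8 members, while 16.8% of all measured genes were that much lower. Irf3 was lower by less than 4-fold, and Irf7 and Irf9 had more signal in the CD45-negative cells than in the CD45-positive cells. No member was at least 4-fold higher, a class that held 8.31% of all measured genes. From 2-fold upward, 6 members were lower, against 33.3% of all measured genes, and 1, Irf7, was higher, against 16.8%. The median difference of the 8 members was -2.98, against -0.26 for all measured genes. In the order of their differences, Irf8 stood lowest of the 7 members above the level in both arrays, followed by Irf5, Irf1, Irf2, Irf3, Irf9 and Irf7. Irf4 has only a bound of -4.56, which leaves its place against Irf8 at -5.49 unknown, and without a detection level its difference was -6.68. Neighbours in that order lay within 0.24 of each other from Irf5 to Irf1 and within 0.50 from Irf9 to Irf7, both less than the 0.83 (SD, log2 scale) by which probe sets of the same gene differed over 5474 genes. That spread is not replicate error.

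**Figure D1:**
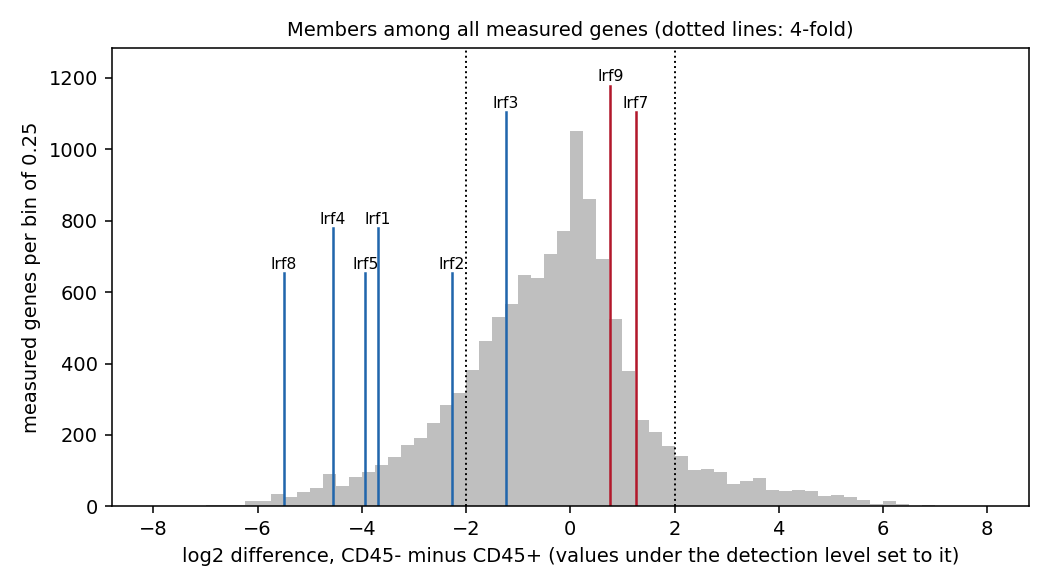
Histogram of the log2 difference, CD45-negative minus CD45-positive, over 11793 measured genes (x axis, log2 units; y axis, genes per bin), with a red line for each member that was higher in the CD45-negative cells, a blue line for each that was lower and dotted lines at 4-fold. Irf8, Irf4 (a bound), Irf5, Irf1 and Irf2 lie left of the lower dotted line, Irf3 between it and 0, and Irf9 and Irf7 right of 0 and inside the upper dotted line.

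IRF8, a factor needed for monocytes, dendritic cells and the normal course of B cell differentiation, showed the widest gap among the members read above the level in both arrays. Its brighter probe set, 1416714_at, read 301.7 in the CD45-negative array against 13603.4 in the CD45-positive array, 45.1-fold lower. The second, 1448452_at, read 55.8 in CD45-negative cells, under the detection level, against 3586.9 in CD45-positive cells, at least 35.5-fold lower. Both probe sets thus placed Irf8 far lower in the CD45-negative cells, and only 0.687% of measured genes had a lower difference than the brighter one. In the 2 log2 intensities, the genes nearest to Irf8 were Limd2, Slfn2 and Tyrobp, an adaptor of myeloid receptors, at distances of 0.02, 0.09 and 0.16. That likeness rests on 2 arrays and on probe intensities, which depend on the probes as well as on the RNA.

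IRF4, which drives plasma cell formation and T cell activation, was not measured in the CD45-negative cells by either of its probe sets. Probe set 1421173_at read 23.2 in the CD45-negative array against 2385.2 in the CD45-positive array, at least 23.6-fold lower. A level set from the CD45-negative array alone was 127.3, against which Irf4 was at least 18.7-fold lower. Probe set 1421174_at read 100 in CD45-negative against 234.8 in CD45-positive cells, at least 2.32-fold lower, which does not show whether the gap reached 4-fold. The 2 probe sets gave the same direction, with CD45-negative readings under the level in both.

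IRF1, the activator that interferon-gamma induces, and IRF2, its competitor on the same elements, were each read by 1 probe set. Irf1 stood at 254.1 in the CD45-negative array against 3282.6 in the CD45-positive array, 12.9-fold lower. Irf2 stood at 355.2 in CD45-negative against 1722.9 in CD45-positive cells, 4.85-fold lower. The CD45-negative reading was thus the lower in both, and by less for Irf2. The call of Irf2 depended on the scaling, since its difference of -2.28 became -1.86 after quantile normalization, short of 4-fold. Its probe set, 1418265_s_at, is of a kind whose probes can also match transcripts of another gene.

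Of the factors that the sensors activate, Irf5 and Irf3 were read less evenly by their probe sets. IRF5 acts downstream of Toll-like receptors in macrophages, dendritic cells and B cells. Its probe set 1460231_at read 187.1 in the CD45-negative array against 2860.5 in the CD45-positive array, 15.3-fold lower, while 1449678_at read 204.5 in CD45-negative against 171.9 in CD45-positive cells, a difference of 0.25 in the other direction. With the mean of both probe sets the difference of Irf5 was -1.84, under the 4-fold threshold, so the call rests on the brighter one. IRF3, the factor that most cell types hold ready for the first wave of interferon-beta, had 4 probe sets. By these, Irf3 read 1078.5 in CD45-negative against 2541.3 in CD45-positive cells (1426111_x_at), 384.0 in CD45-negative against 406.6 in CD45-positive cells (1416898_a_at), 20.0 in CD45-negative against 245.8 in CD45-positive cells (1435271_at) and 3.9 in CD45-negative against 167.1 in CD45-positive cells (1438721_a_at). The lower reading was in the CD45-negative array in all 4 as deposited, but 1416898_a_at turned to a difference of 0.64 after quantile normalization. The difference of Irf3 was -1.24 by the brightest probe set, whose suffix marks probes that may match other sequences. With the mean of the 4 it was a bound of -2.17, since the CD45-negative mean fell under the level through 1435271_at and 1438721_a_at, while no single probe set of Irf3, held at the level, went beyond -1.28.

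Irf7 and Irf9 ran the other way. IRF7 is the main amplifier of the type I interferon response and is itself induced by interferon. It stood at 9110.2 in the CD45-negative array against 3798.9 in the CD45-positive array, 2.40-fold higher, and 13.4% of measured genes had a higher difference. IRF9, the DNA-binding subunit of the complex that type I interferon receptors activate, stood at 4583.9 in CD45-negative against 2695.2 in CD45-positive cells, 1.70-fold higher, with 20.9% of measured genes above it. Both genes were well above the detection level in both arrays, each by 1 probe set, and neither reached 4-fold. Each of these probe sets has the suffix _a_at, so neither gene had a value when _s_at, _x_at and _a_at probe sets were left out. The differences of Irf7 and Irf9, 1.26 and 0.77, were 0.85 and 0.55 after quantile normalization and 1.31 and 0.81 after median centring. The direction thus held under these scalings. In each case the difference of Irf9 was less than 0.83, the SD between probe sets of a gene. That of Irf7 was close to this SD after quantile normalization. Gmps, Dctn3 and Dpy30 were the genes nearest to Irf9 in the 2 log2 intensities, at distances of 0.05, 0.06 and 0.07.

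**Figure D2:**
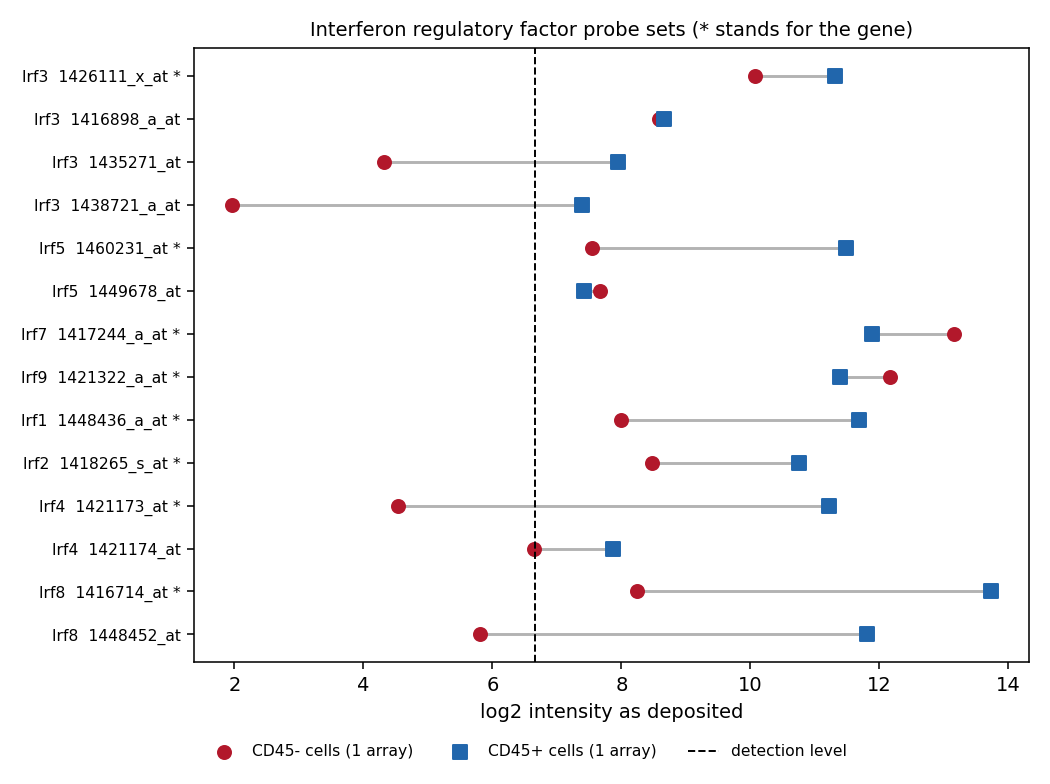
Log2 intensity as deposited (x axis) of the 14 probe sets of the 8 members (rows), with a circle for the CD45-negative array, a square for the CD45-positive array and a dashed line at the detection level. The circle lies right of the square for Irf7, Irf9 and 1449678_at of Irf5, and left of it for the other 11 probe sets, 5 of which have the circle under the level.

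Transcripts of white cells were also read in the CD45-negative array. The summed intensity of the 12 white cell markers was 9946 in the CD45-negative array against 247496 in the CD45-positive array, or 4.02%, and no marker was listed at 0. The sum was 1.96% for 8 B cell markers, 1.93% for 8 T and natural killer cell markers, 3.12% for 8 neutrophil markers, 5.01% for 12 macrophage and dendritic cell markers and 7.30% for 8 plasma cell markers. Above the level in the CD45-negative array were 10 of 12 white cell, 6 of 8 B cell, 3 of 8 T and natural killer cell, 8 of 8 neutrophil, 8 of 12 macrophage and dendritic cell and 5 of 8 plasma cell markers. Of those, Nkg7 (104.9), Cd3g (120.6) and C1qa (109.0) read under 127.3, the level from the CD45-negative array alone. The median of the receptor probe sets was 33.65 in that array against 17.5 in the CD45-positive array. Set beside the marker sums, the CD45-negative reading was 0.973% of the CD45-positive one for Irf4, 2.22% for Irf8 by its brighter probe set, 6.54% for Irf5, 7.74% for Irf1, 20.6% for Irf2 and 42.4% for Irf3. The 10 white cell markers above the level ran from 1.31% (Ptprc) to 13.5% (Arhgdib), a range that holds the values of Irf8, Irf5 and Irf1, with Irf2 and Irf3 above it. The percentage of Irf4 comes from a reading under the level and was not placed in that range. The highest percentage was 15.7% for B cell and 16.3% for T and natural killer cell markers, both from readings under the level. It was 52.7% for neutrophil, 48.8% for plasma cell and 286% for macrophage and dendritic cell markers. These 3 values came from Mpo, Xbp1 and Zbtb46. Whether Irf2 and Irf3 lie above the highest marker therefore depends on the list. The median percentage was 1.99% for B cell, 2.83% for T and natural killer cell and 3.17% for neutrophil markers. It was 4.29% for plasma cell and 5.96% for macrophage and dendritic cell markers. Readings under the level entered all of these medians but the neutrophil one. Irf2 and Irf3 lay above each median. The part of such transcripts in the members' readings was not tested. In the other direction, the red cell markers summed to 465771 in the CD45-negative array against 12030 in the CD45-positive array, which is 2.58% of the CD45-negative sum, and 6 megakaryocyte and platelet markers to 34822 in CD45-negative against 1642 in CD45-positive cells. In bulk samples, fewer cells of a type and less RNA per cell cannot be told apart.

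The DNA upstream of the members differed in the elements that interferon signals use, and the stretches for Irf1, Irf8 and Irf2 are shown because they hold such letters, with that of Irf7, the member with the highest difference, beside them. Windows from 250 bases before to 50 bases after each transcript start came from RefSeq (GRCm38.p6), which gave 11 windows for the 8 members. Both strands were searched for the core of the interferon-stimulated response element, which is GAAA, any 2 bases and GAAA again, for the composite element of ETS and interferon regulatory factors, which is GGAA, any 2 bases and GAAA, and for TTCNNNGAA, the gamma-activated site that STAT dimers bind. TTCNNNGAA stood in 3 of the 11 windows, those at the gene starts of Irf1, Irf2 and Irf8, and in 8.30% of all 32851 windows. The response element core stood in the window of Irf2 alone and in 3.44% of all windows, and the composite element likewise in that of Irf2 alone and in 2.72% of all, with the matches of both overlapping in Irf2. None of the 3 was found in the windows of Irf3, Irf4, Irf5, Irf7 and Irf9, which says only that these letters are not in them. The only windows of Irf5 and of Irf7 lay at a transcript start other than the gene start. No window at the gene start of either was searched, so the stretch of Irf7 does not describe its gene start. The 250 bases before each start follow, with matches in capitals, for Irf1 at chr11:53769764-53770013 (plus strand), Irf8 at chr8:120736108-120736357 (plus strand), Irf2 at chr8:46739495-46739744 (plus strand) and Irf7 at chr7:141266425-141266674 (minus strand).
Irf1: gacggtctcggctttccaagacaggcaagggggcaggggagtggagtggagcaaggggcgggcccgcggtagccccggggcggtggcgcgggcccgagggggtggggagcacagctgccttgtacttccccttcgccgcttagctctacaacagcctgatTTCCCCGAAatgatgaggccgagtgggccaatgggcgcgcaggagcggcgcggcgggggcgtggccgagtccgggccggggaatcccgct
Irf8: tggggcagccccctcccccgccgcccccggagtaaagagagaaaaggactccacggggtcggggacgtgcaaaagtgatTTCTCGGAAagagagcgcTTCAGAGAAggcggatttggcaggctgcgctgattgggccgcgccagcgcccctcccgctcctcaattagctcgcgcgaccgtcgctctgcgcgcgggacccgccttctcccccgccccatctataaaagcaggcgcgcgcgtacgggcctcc
Irf2: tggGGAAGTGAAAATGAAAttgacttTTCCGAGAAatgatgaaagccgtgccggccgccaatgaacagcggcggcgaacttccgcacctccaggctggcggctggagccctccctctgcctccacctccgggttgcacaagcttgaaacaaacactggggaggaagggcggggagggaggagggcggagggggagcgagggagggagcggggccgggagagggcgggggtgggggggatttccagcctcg
Irf7: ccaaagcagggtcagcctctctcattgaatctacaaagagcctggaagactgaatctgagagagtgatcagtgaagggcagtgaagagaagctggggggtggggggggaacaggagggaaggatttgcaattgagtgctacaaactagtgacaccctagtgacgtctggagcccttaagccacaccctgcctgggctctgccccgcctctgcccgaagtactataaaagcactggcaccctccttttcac
In Irf1 the match TTCCCCGAA ran from -90 to -82, counted from the start. In Irf8 the matches TTCTCGGAA and TTCAGAGAA lay at -171 to -163 and -153 to -145. In Irf2 the run GGAAGTGAAAATGAAA held the matches to both GAAA-based elements, and TTCCGAGAA followed it. All 3 genes belong to the 5 members that were lower by 4-fold or more, but so do Irf4 and Irf5, whose windows held no match. A link between matches and differences was not tested, and a match describes letters, not binding.

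Genes of the proteins that pair with the family on DNA were mostly lower in the CD45-negative array. Among 13 measured DNA-binding partners and co-repressors, 8 were lower by 4-fold or more and 0 higher, with a median difference of -3.13. Among all measured genes, 16.8% were that much lower and 8.31% that much higher. Spib, the ETS factor of B cells and plasmacytoid dendritic cells, stood at 275.2 in the CD45-negative array against 10476.2 in the CD45-positive array, 38.1-fold lower. Mef2c, a MADS-box factor of B and myeloid cells, stood at 96.4 in CD45-negative against 3780.2 in CD45-positive cells, at least 37.4-fold lower, and Ikzf3, the Ikaros relative Aiolos, at 104.3 in CD45-negative against 2792.4 in CD45-positive cells, 26.8-fold lower. Ikzf3 had 3 probe sets and a difference of -2.14 with their mean. Batf2 (103.0 in CD45-negative against 103.4 in CD45-positive cells), an AP-1 factor, lay just above the level in both arrays, and Irf2bp1, a co-repressor that binds IRF2, stood at 535.5 in CD45-negative against 860.8 in CD45-positive cells. Among the genes that IRF8 is known to act on in myeloid and B cells, 9 of 11 measured were lower by 4-fold or more and 0 higher (median -3.90). Ctsc, the protease cathepsin C, stood at 136.5 in CD45-negative against 8627.9 in CD45-positive cells (-2.89 in log2 units when its probe sets were averaged), Cybb, the catalytic subunit of the phagocyte oxidase, at 271.0 in CD45-negative against 13394.3 in CD45-positive cells, and Id2, an inhibitor of helix-loop-helix factors, at 173.1 in CD45-negative against 3973.9 in CD45-positive cells. Batf3 and Xcr1, genes of cross-presenting dendritic cells, were under the level in the CD45-negative array and dim in the other, at 38.6 in CD45-negative against 206.0 in CD45-positive cells and 30.9 in CD45-negative against 146.6 in CD45-positive cells. The median of the white cell markers was -5.36.

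Genes tied to IRF4 in plasma cells were less uniform. Of 7 measured, 4 were lower by 4-fold or more and 0 higher, with a median difference of -2.04. Among all measured genes, 16.8% were that much lower and 8.31% that much higher. Myc, whose gene IRF4 activates in activated lymphocytes and myeloma, stood at 266.4 in the CD45-negative array against 2101.6 in the CD45-positive array, 7.89-fold lower. Zbtb20 stood at 172.0 in CD45-negative against 823.8 in CD45-positive cells, and Prdm1, the plasma cell repressor Blimp-1, at 5.8 in CD45-negative against 415.3 in CD45-positive cells, at least 4.11-fold lower. Zbtb32 (81.1 in CD45-negative against 181.0 in CD45-positive cells) was under the level in the CD45-negative array, and Ell2, an elongation factor of antibody-secreting cells, had 2658.3 in CD45-negative against 1843.1 in CD45-positive cells. The count of 4 was 2 after median centring and 1 after quantile normalization, and Prdm1 and Sdc1, the plasma cell surface proteoglycan, lay just past the threshold, each at least 4.11-fold lower.

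The sensors and kinases upstream of IRF3, IRF5 and IRF7 were uneven. Of 21 measured, 6 were lower by 4-fold or more in the CD45-negative cells and 0 higher, with a median difference of -0.89. Among all measured genes, 16.8% were that much lower and 8.31% that much higher. Unc93b1, the chaperone that carries endosomal Toll-like receptors, stood at 230.0 in the CD45-negative array against 5869.4 in the CD45-positive array, 25.5-fold lower. Sting1, the adaptor for cytosolic DNA, stood at 18.4 in CD45-negative against 2398.2 in CD45-positive cells, at least 23.7-fold lower, and Tlr7, the receptor for single-stranded RNA, at 16.4 in CD45-negative against 1526.2 in CD45-positive cells, at least 15.1-fold lower. The other 3 past the threshold were Ikbke, Slc15a4 and Ddx58, a kinase of IRF3, a lysosomal transporter that Toll-like receptor signalling needs and the RNA sensor RIG-I. Against these, Tbk1, the other kinase of IRF3, stood at 3807.9 in CD45-negative against 3383.6 in CD45-positive cells, and Dhx58, a regulator of the RNA sensors, at 1032.0 in CD45-negative against 926.5 in CD45-positive cells. Genes outside the naming rule that were chosen after their values were seen include Ifih1, the sensor of long double-stranded RNA, at 4586.7 in CD45-negative against 1237.2 in CD45-positive cells, Cgas, the sensor of cytosolic DNA, at 833.2 in CD45-negative against 340.6 in CD45-positive cells, and Mavs, the adaptor of the RNA sensors, at 1879.1 in CD45-negative against 954.8 in CD45-positive cells. These 3 had more signal in the CD45-negative cells, by less than 4-fold.

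**Figure D3:**
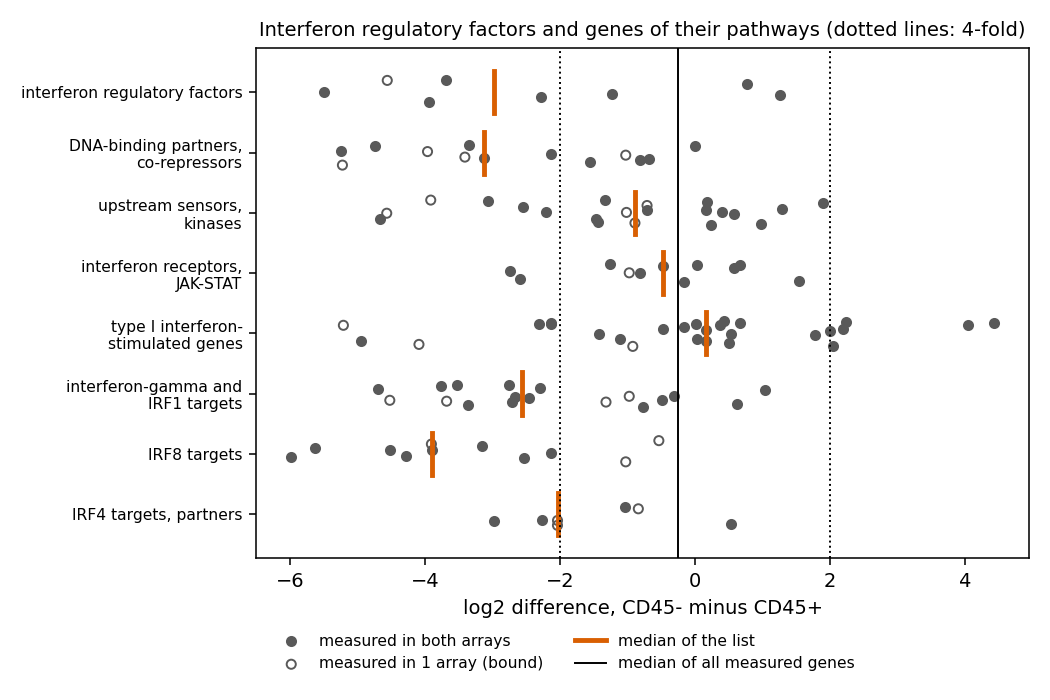
Log2 difference, CD45-negative minus CD45-positive (x axis), of each measured gene in the family and in 7 lists of its pathways (rows), with open circles for bounds, an orange bar at each list's median, a line at the median of all measured genes and dotted lines at 4-fold. The medians of IRF8 targets (-3.90), partners (-3.13), the family (-2.98), IRF1 targets (-2.56) and IRF4 targets (-2.04) lie left of the lower dotted line, and that of type I interferon-stimulated genes (0.16) lies right of 0.

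The receptors and JAK-STAT proteins that feed IRF9 were mostly within 4-fold between the samples. Of 11 measured, 2, Ifngr1 and Tyk2, were lower by 4-fold or more in the CD45-negative cells, a share near the 16.8% of all measured genes, and 0 higher, with a median difference of -0.47. Averaging each gene's probe sets took Tyk2 out of this count, which was then 1. Ifnar2, the signalling chain of the type I interferon receptor, stood at 5397.3 in the CD45-negative array against 1857.1 in the CD45-positive array, 2.91-fold higher, with all 3 of its probe sets between 0.91 and 1.73. The other chain, Ifnar1, stood at 819.2 in CD45-negative against 804.9 in CD45-positive cells by the brighter of 2 probe sets, which ran from -1.11 to 0.03, and Jak2 at 2450.1 in CD45-negative against 2745.2 in CD45-positive cells. The ligand-binding chain of the interferon-gamma receptor, Ifngr1, stood at 204.5 in CD45-negative against 1367.7 in CD45-positive cells, 6.69-fold lower. Tyk2, a kinase of the type I receptor, stood at 184.2 in CD45-negative against 1107.2 in CD45-positive cells, and its 2 probe sets disagreed, with differences of -2.59 and 0.77, which leaves its direction uncertain.

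Targets of the family were described in a pair of lists. Of 18 measured interferon-gamma and IRF1 targets, 11 were lower by 4-fold or more in the CD45-negative cells, against 16.8% of all measured genes. The count higher was 0, against 8.31%, and the median difference was -2.56. Psmb8, an immunoproteasome subunit, stood at 393.2 in the CD45-negative array against 10181.9 in the CD45-positive array, Casp1, the inflammasome protease, at 40.0 in CD45-negative against 2323.7 in CD45-positive cells, and Gbp2, an interferon-gamma-induced GTPase, at 222.2 in CD45-negative against 3013.5 in CD45-positive cells. Tapbp (8530.5 in CD45-negative against 10586.6 in CD45-positive cells), a chaperone of class I molecules, and the chemokine gene Cxcl10 (276.0 in CD45-negative against 387.5 in CD45-positive cells) differed least. Of the 7 targets within 4-fold, Igtp and Irgm1 had more signal in the CD45-negative cells, and the rest had less. Igtp stood at 7022.5 in CD45-negative against 4547.6 in CD45-positive cells, and Irgm1 at 5743.7 in CD45-negative against 2798.8 in CD45-positive cells. Of 27 measured type I interferon-stimulated genes, 5 were higher and 6 lower by 4-fold or more, against 8.31% and 16.8% of all measured genes. The other 16 differed by less, and the median of the list was 0.16. Quantile normalization left 3 higher. The 5 higher ones, Rsad2, Isg20, Oas3, Cmpk2 and Oasl2, ran from 4.14-fold to 21.5-fold, and Rsad2, the antiviral enzyme viperin, stood at 70515.8 in CD45-negative against 3275.5 in CD45-positive cells. The 6 lower ones were Zbp1, Ifit3, Mx1, Samd9l, Ifit2 and Trim30a, with Zbp1, a sensor of Z-form nucleic acid, at 15.9 in CD45-negative against 3743.3 in CD45-positive cells and Ifit3, an antiviral RNA-binding partner of IFIT1, at 158.3 in CD45-negative against 4886.7 in CD45-positive cells. Oas1a (2807.0 in CD45-negative against 2745.4 in CD45-positive cells) and Eif2ak2 (896.7 in CD45-negative against 885.1 in CD45-positive cells), an oligoadenylate synthetase and the double-stranded RNA kinase PKR, were nearly equal by their brightest probe sets, though the difference of Eif2ak2 was 0.95 with the mean of its 3. Both lists were chosen with earlier results of these data known, and the difference between them was not tested.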

How the data were processed

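Expression was measured on 1 Affymetrix array per group. The deposited table held 1 linear intensity per probe set and array for 45037 probe sets, and the submitters' processing notes name GCRMA and Partek 6.6 without saying which step made the values. The scaling and the detection calls behind the intensities are therefore unknown. A choice of scaling could shift every difference alike, or by unequal amounts as quantile normalization did. GEO's platform annotation gave 34945 probe sets 1 symbol, 932 several and 9160 none. By Entrez identifier, 34741 were found in the RefSeq gene table of GRCm38.p6, with 0 symbols changed. Intensities were turned to log2 without a pseudocount, the brightest probe set stood for each gene, and the detection level came from 80 receptor probe sets. The main gene summary was tested on simulated data, and its alternatives were not. The simulation gave all probe sets of a gene the same true difference. It scored changed genes only where both arrays were above the level. It therefore could not test how the summary handles disagreeing probe sets or bounds. With 1 array per group there was no test and no p-value, and the number of arrays limits precision. The members and gene lists were chosen with earlier results of these data known. The text names every member, for each list of its pathways the 3 genes with the largest and the 2 with the smallest differences and those 4-fold against the list, the 3 genes nearest to Irf8 and to Irf9, and Ptprc. Any further gene was chosen after its values were seen. Genes without a probe set of their own were not analysed here. Alternatives were the mean of probe sets, quantile normalization, median centring, other detection levels and the omission of probe sets by suffix. Python 3.11.15, numpy 2.4.6, pandas 2.3.3 and matplotlib 3.10.9 were used.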

Additional observations from a re-analysis of the deposited data

How the results depend on the processing

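No paired analysis was possible because each group had 1 array. A change was read as such when it exceeded 0.83, the SD between probe sets of a gene, or 1.5 times for a count. Quantile normalization moved the median of all measured genes to 0.01 from -0.26, and the 4-fold higher share of the called genes to 42.2% from 33.1%. Irf1, Irf2, Irf7, Irf8 and Irf9 stayed within that spread under the alternatives that gave them a value. With the mean of probe sets, the difference was -2.17 for Irf3, -2.89 for Irf4 and -1.84 for Irf5, since dimmer probe sets entered, and the count of lower members was 5 with Irf3 in it and Irf5 out of it. The values of Irf3 and Irf4 are bounds, and that of Irf3 rests on 2 probe sets under the level in the CD45-negative array, while none of its 4, held at the level, reached 4-fold alone. With no detection level the difference was -6.68 for Irf4, a value no longer held at the level. Without _s_at, _x_at and _a_at probe sets, 4 members were left, 3 of them lower by 4-fold or more, and the median was -4.25. Irf7 and Irf9, the members that were higher, had no value in that setting, nor did Irf1 and Irf2, so this median covers other members than the main one. Without _s_at and _x_at probe sets alone, chosen after seeing the data, Irf3 stood at -0.0825 and Irf2 had no value. At 2-fold, 1 member was higher and 6 lower. Among the lists, the mean of probe sets gave medians of -1.89 for partners, -2.89 for IRF8 targets and -4.37 for white cell markers, and counts of 1 lower for receptors and 1 higher for IRF regulators. Quantile normalization left 3 type I interferon-stimulated genes higher, 1 IRF4 target lower and 3 plasma cell markers lower. Median centring, the 99th percentile level and a level per array each left 2 IRF4 targets and 3 plasma cell markers lower. Without a detection level, 1 interferon gene was higher and 2 lower, and the plasma cell median was -4.54. The median of interferon genes was -3.14 at the 99th percentile level. Without the 3 suffixes, 2 interferon-stimulated genes were higher, and medians were -2.85 for IRF8 targets, -2.06 for interferon genes and -3.86 for white cell markers. Without _s_at and _x_at alone, medians were -2.29 for partners and -2.06 for interferon genes. The median of interferon genes, 0.11 over 5 genes, changed sign at the 99th percentile level and with either omission of suffixes, as it did without a detection level (-0.36), and no member's difference or list median past 4-fold changed sign. Without a level, 2885 of all genes were 4-fold higher and 3293 lower, against 980 higher and 1979 lower with it. The number of arrays, and readings near the level, limit what the data can show.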

Other observations

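Genes listed as regulators of the interferon regulatory factors by ubiquitin or SUMO went both ways, and the list does not separate direct from upstream action. Of 10 measured regulators by ubiquitin or SUMO, 2 were higher by 4-fold or more in the CD45-negative cells, against 8.31% of all measured genes. The count lower was 1, against 16.8%, while 7 differed by less, and the median difference was 0.60. Ube2l6, the conjugating enzyme for the ubiquitin-like protein of the interferon response, stood at 12681.9 in the CD45-negative array against 266.1 in the CD45-positive array, 47.7-fold higher. Otud5, a deubiquitinase, stood at 11945.8 in CD45-negative against 1801.0 in CD45-positive cells, and with the mean of its probe sets its difference was 1.88, under the threshold. Tnfaip3, the ubiquitin-editing enzyme A20, stood at 256.9 in CD45-negative against 4376.8 in CD45-positive cells, 17.0-fold lower. Trim28 (4924.8 in CD45-negative against 4230.4 in CD45-positive cells) and Rbck1 (1475.6 in CD45-negative against 2179.8 in CD45-positive cells), a co-repressor and a subunit of the linear ubiquitin ligase, were within 4-fold.

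Genes of type I interferons lay near or under the detection level. Of 8 interferon genes with a probe set, Ifng of type II among them, 5 were measured in at least 1 array. Ifng, made by T and natural killer cells, stood at 2.8 in the CD45-negative array against 1413.2 in the CD45-positive array, at least 14.0-fold lower. Ifna1 (109.2 in CD45-negative against 3.7 in CD45-positive cells), Ifna5 (114.3 in CD45-negative against 42.5 in CD45-positive cells) and Ifnab (132.4 in CD45-negative against 36.3 in CD45-positive cells) were just above 101.1 in the CD45-negative array, and Ifnz (90.2 in CD45-negative against 126.3 in CD45-positive cells) in the CD45-positive array. The readings of Ifna1 and Ifna5 lay under 127.3, the percentile for the CD45-negative array alone, and alpha interferon genes are near-identical in sequence, so the values are uncertain. Ifnb1, at 12.9 in CD45-negative against 28.1 in CD45-positive cells, was under the level in both arrays.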
